A study of Mus musculus with 26 samples.

Results

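The mitosis and G2/M genes described here are 38 genes whose products drive or carry out cell division between the end of DNA synthesis and the separation of the daughter cells. They were chosen by name, from their textbook roles, at a time when earlier results of these data were known. A row of the deposited array table carried the name of 36 of the 38, out of 19505 genes with a name. No named row carried Ccnb1, which encodes cyclin B1, or Foxm1, which encodes a transcription factor of mitotic genes, so these 2 members have no value here. Each of the 36 measured members had 1 transcript cluster, the unit in which the array reports a gene, and no member was lost to a filter because no filter on low values was applied.

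The cells were neural stem and progenitor cells (NSPCs), cultured from the telencephalon, the forebrain vesicle that forms the cortex, of C57BL/6 mice at postnatal day 0. They were kept in medium with the mitogens EGF and FGF-1 and studied after passage 3. Of the 13 cultures, each from 1 animal, 6 were wild type (WT, cultures 1 to 6) and 7 were labelled SOX2 KO (cultures 7 to 13), a knockout of the transcription factor SOX2. Each culture gave 1 array after 4 h with the ethanol vehicle and 1 after 4 h with the synthetic glucocorticoid dexamethasone (Dex) at 100 nM, which makes 26 arrays. The labels state that both sexes were used without giving the sex of any culture, and say nothing of how or in which cells Sox2 was deleted. Eif2s3y, a gene of the Y chromosome, was at 11.82 to 12.68 log2 units on the arrays of cultures 1, 2, 3, 8 and 10. On those of the other cultures it was at 2.79 to 4.46.

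Entry into mitosis is set by the kinase CDK1 bound to cyclin A or B, which the phosphatases of the CDC25 family activate. The Polo and Aurora kinases then build the spindle, the checkpoint proteins hold back the anaphase-promoting complex until every kinetochore is attached, and the central spindle proteins guide cytokinesis. Transcription of most of these genes peaks in G2 and M phase, so in a mixed culture their RNA follows the share of cells near division. Their promoters are textbook targets of the DREAM and MuvB complexes, which bind the cell cycle genes homology region (CHR), and of NF-Y, which binds CCAAT boxes. In bulk RNA of this kind, fewer cells in G2 and M phase and less RNA per such cell cannot be told apart.

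The promoters of 6 members are shown because they carry the letters that the members share most often. All are from RefSeq's mouse annotation on build GRCm38.p6, read 5′ to 3′ on the strand of the gene. Capitals mark the CHR letters TTTGAA or TTCGAA and the CCAAT letters, on either strand, so that ATTGG and TTCAAA are the same letters read on the other strand. Positions are counted from the annotated start of transcription, and each stretch runs from 10 bases before the first marked letters to 10 bases after the last within a window of 250 bases before to 50 bases after the start. Cdk1 encodes the mitotic kinase itself (chr10:69352912-69353130, minus strand), and Ccnb2 its partner cyclin B2 (chr9:70421535-70421731, minus strand). Mki67 encodes the surface protein of mitotic chromosomes that is used as a proliferation marker (chr7:135716462-135716577, minus strand), and Top2a the topoisomerase that untangles sister chromatids (chr11:99024197-99024426, minus strand). Cdc20 encodes an activator of the anaphase-promoting complex (chr4:118437337-118437406, minus strand), and Ube2c the ubiquitin-conjugating enzyme of the same complex (chr2:164769691-164769915, plus strand).
Cdk1: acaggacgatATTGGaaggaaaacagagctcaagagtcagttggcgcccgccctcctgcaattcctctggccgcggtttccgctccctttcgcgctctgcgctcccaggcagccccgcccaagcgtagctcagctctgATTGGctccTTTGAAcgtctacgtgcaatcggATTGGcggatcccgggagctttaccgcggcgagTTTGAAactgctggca
Ccnb2: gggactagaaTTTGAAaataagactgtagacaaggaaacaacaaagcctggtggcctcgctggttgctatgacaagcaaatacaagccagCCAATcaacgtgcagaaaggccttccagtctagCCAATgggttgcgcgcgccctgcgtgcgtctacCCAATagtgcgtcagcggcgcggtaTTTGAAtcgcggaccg
Mki67: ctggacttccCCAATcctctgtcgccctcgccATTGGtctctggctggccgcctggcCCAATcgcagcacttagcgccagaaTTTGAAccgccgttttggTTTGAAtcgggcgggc
Top2a: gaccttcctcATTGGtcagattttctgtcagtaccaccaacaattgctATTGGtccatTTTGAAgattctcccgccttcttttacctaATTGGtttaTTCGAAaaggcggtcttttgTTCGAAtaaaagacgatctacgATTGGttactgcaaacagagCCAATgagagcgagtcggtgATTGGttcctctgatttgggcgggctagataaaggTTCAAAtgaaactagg
Cdc20: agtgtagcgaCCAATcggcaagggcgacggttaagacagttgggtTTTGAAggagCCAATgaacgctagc
Ube2c: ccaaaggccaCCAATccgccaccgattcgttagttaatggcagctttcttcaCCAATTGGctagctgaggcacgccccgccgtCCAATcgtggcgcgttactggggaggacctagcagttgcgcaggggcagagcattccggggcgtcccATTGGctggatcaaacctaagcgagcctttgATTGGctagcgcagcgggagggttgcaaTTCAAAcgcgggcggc

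A window was found for 31 of the 38 members. The table held none for Aurkb, Ccna2, Cdc25c, Foxm1, Incenp, Kif20a and Tpx2. The CHR letters (TTTGAA or TTCGAA, either strand) were in the windows of 25 of the 31 members, or 80.6%, against 21.7% of the 27025 genes with a window of that length. CCAAT was in 24 of 31 (77.4%, against 41.1% of all genes), and at 2 or more places in 17 of 31 (54.8%, against 13.3%), with overlapping places counted apart. Both sets of letters were in the windows of 22 of 31 members, or 71.0%, against 8.61% of all genes. The E2F letters TTCCCGC or TTGGCGC, which belong rather to promoters of G1/S genes, were in 4 of 31 member windows (12.9%, against 7.79% of all genes). Of the sequences above, that of Ube2c holds CCAAT at 6 places, 2 of which overlap as CCAATTGG, and TTCAAA once, 29 bases before the start. These counts describe letters in a window, and binding at them was not measured here.

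Several facts of the arrays bear on the members' values. Sox2 itself lay between 12.17 and 14.39 log2 units on the WT arrays and between 3.92 and 6.50 on the SOX2 KO arrays, so no array went against its genotype label. Fkbp5, a gene that glucocorticoids induce, was 1.27 to 2.83 log2 units higher with Dex in 12 of 13 cultures and lower by 2.03 in WT culture 4, so the pair labelled culture 4 goes against its treatment labels. Per1 and Fam107a, 2 further genes used to check the labels, had Dex minus vehicle differences of -2.74 and -6.83 in culture 4. In the other 12 cultures these ran from 1.28 to 3.04 and from 3.99 to 5.76. Means and ranges include culture 4 as labelled, and the main Dex differences are also given without it. By overall profile, with all cell cycle lists left out, the cultures formed 3 array clusters (1, 2, 3, 7 and 8; 4, 10 and 12; 5, 6, 9, 11 and 13), of which the first had upper quartiles of 10.09 to 10.43 log2 units and the other 2 of at most 9.79. The Dex array of SOX2 KO culture 12 had the lowest upper quartile, at 9.38. Mean levels of the neural stem and progenitor marker list (10 of 10 measured, among them Nes and Pax6) were 11.75 to 12.85 in all groups. The microglia list (7 of 7 measured) stayed at 4.40 to 5.21, and the endothelial and mesenchymal list (8 of 8) at 4.64 to 5.21. The neuron list (8 of 8) ranged from 8.14 to 9.69, the astrocyte list (6 of 6) from 8.10 to 10.46 and the oligodendrocyte lineage list (6 of 8) from 9.55 to 11.64. Genes within a list differed widely. Their median levels ran from 8.11 (Notch1) to 19.24 (Fabp7) in the stem and progenitor list, with Pax6 at 9.905. They ran from 5.135 (Rbfox3) to 15.03 (Map2) in the neuron list and from 5.53 (S100b) to 14.16 (Aldh1l1) in the astrocyte list. In the oligodendrocyte lineage list they ran from 4.27 (Mog) to 15.655 (Olig1). The part of these lists in the members' values was not tested.

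The mean level of the members differed between the genotypes by less than the spread between cultures. Averaged over the 36 measured members, an array's level was 12.30 ± 0.199 log2 units in WT vehicle (SD, n = 6; lowest 12.02, median 12.33, highest 12.60) and 12.16 ± 0.367 in SOX2 KO vehicle (SD, n = 7; 11.65, 12.19 and 12.63). With Dex it was 12.32 ± 0.267 in WT (n = 6; 12.02, 12.30 and 12.77) and 12.06 ± 0.386 in SOX2 KO (n = 7; 11.42, 12.17 and 12.60). The groups overlapped in both treatments, and SOX2 KO cultures 12 and 13 lay below every WT culture. Culture 12 was at 11.75 with vehicle and 11.42 with Dex, and culture 13 at 11.65 and 11.72. After quantile normalization the group means were 12.24 ± 0.117, 12.28 ± 0.0877, 12.18 ± 0.235 and 12.12 ± 0.206 in the same order as in the plot of member means. Culture 13 was then the lowest with both treatments (11.75 and 11.82). As deposited, culture 12 was the lowest with Dex, and after quantile normalization its Dex array was at 11.90.

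**Figure D1:**
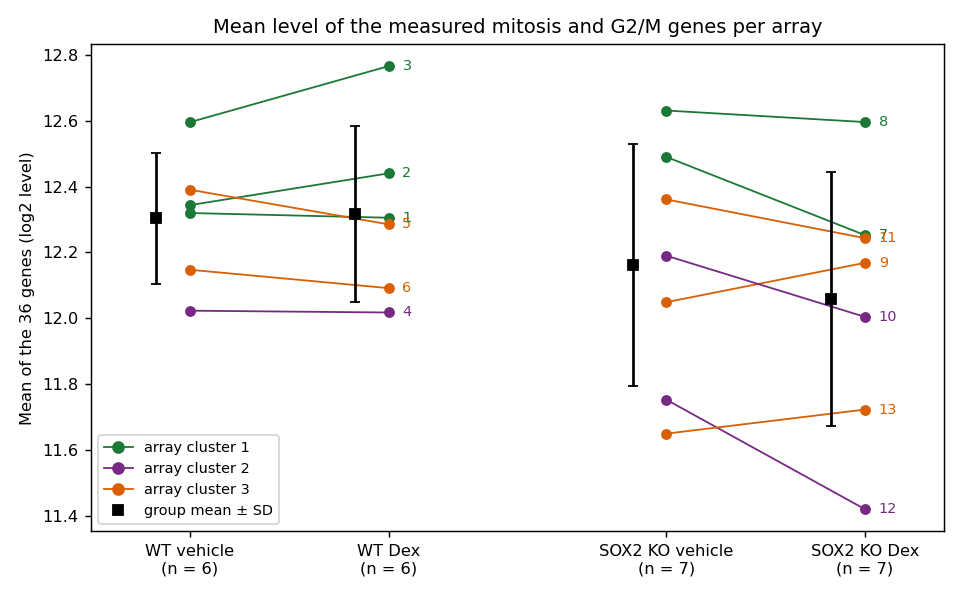
Mean log2 level of the 36 measured mitosis and G2/M genes on each of the 26 arrays, by group; lines join the vehicle and Dex arrays of a culture, numbers name the culture, colours give the array cluster, and black squares with bars are group means ± SD. The SOX2 KO cultures 12 and 13 lie at 11.42 to 11.75, below all WT arrays, while culture 8 lies at 12.60 to 12.63, among the highest.

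The first comparison asks whether loss of SOX2 went with another level of the mitotic genes in vehicle-treated cells. No member passed the test of SOX2 KO against WT in vehicle (limma, Benjamini-Hochberg adjustment over all 19505 genes, adjusted p threshold 0.05), where 0.559% of all genes did. At an unadjusted p under 0.05 there were 2 members, Cdc25b and Aurkb, both lower, beside 5.17% of all genes. The median difference of the 36 members was -0.10 log2 units, with 30 below 0, against -0.03 over all genes, of which 55.2% were below 0. The 95% confidence interval of the difference lay within 1 log2 unit of 0 for 34 of the 36 members, the exceptions being Aurkb and Nuf2, so a larger difference than that was outside the interval for the rest. Quantile normalization took the median to -0.02, and array cluster as a covariate took it to -0.03, with 20 of 36 below 0. With the level of Eif2s3y as a covariate it was -0.07, with 24 below 0. Without culture 4 the median was -0.18, without culture 8 it was -0.21, without culture 13 it was -0.01 and without culture 12 it was -0.07. The direction was not the same in every array cluster. Within the 3 clusters described above the median was 0.17, -0.02 and -0.25, against 0.03, 0.005 and 0.02 over all genes. In the first, 28 of 36 members were above 0, and in the third 30 were below 0. The second held 1 WT culture.

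Among the genes of mitotic entry, all 5 measured members had lower means in SOX2 KO vehicle, by 0.01 to 0.53 log2 units. Cdc25b, the phosphatase that starts CDK1 activation, lay between 7.36 and 8.02 in WT (median 7.60) and between 6.77 and 7.73 in SOX2 KO (median 6.99). The difference was -0.53 ± 0.20 (SE; adjusted p 0.532), and the groups overlapped. Cdk1 lay between 12.32 and 13.06 in WT (median 12.54) and between 11.41 and 13.13 in SOX2 KO (median 12.51), a difference of -0.21 ± 0.25. The lowest and the highest Cdk1 value of the vehicle arrays were thus both from SOX2 KO cultures. Ccna2, Ccnb2 and Cdc25c, which encode cyclin A2, cyclin B2 and a second CDK1 phosphatase, differed by -0.15 ± 0.20, -0.01 ± 0.26 and -0.10 ± 0.27.

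Among the mitotic kinases and the chromosomal passenger complex, all 6 members had lower means in SOX2 KO. Aurkb, the kinase of the passenger complex that corrects wrong attachments, lay between 11.44 and 12.04 in WT (median 11.76) and between 10.86 and 11.39 in SOX2 KO (median 11.21). It was the 1 member whose vehicle groups did not overlap, beside 0.518% of all genes, and its difference was -0.57 ± 0.28 (SE; adjusted p 0.930). Within the array clusters that difference was -0.36, -0.66 and -0.80. The fit behind its SE also held the Dex arrays, among them that of SOX2 KO culture 12, where Aurkb was at 8.94. Without that Dex array the adjusted p of Aurkb in vehicle (limma) was 0.328. With only the vehicle groups in the fit it was 0.212, and after quantile normalization of all arrays it was 0.913. None of these passed the threshold of 0.05. The other passenger proteins differed less: Birc5, which encodes survivin, ranged from 12.26 to 12.86 in WT (median 12.55) and from 11.55 to 12.71 in SOX2 KO (median 12.32), a difference of -0.25 ± 0.21, and Incenp, the scaffold of the complex, differed by -0.10 ± 0.20. Plk1, the Polo kinase of spindle assembly, ranged from 14.03 to 14.57 in WT (median 14.31) and from 13.69 to 14.65 in SOX2 KO (median 14.28), a difference of -0.08 ± 0.21. Aurka and its activator Tpx2 differed by -0.04 ± 0.21 and -0.24 ± 0.21.

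The checkpoint, kinetochore and spindle genes had no member at an unadjusted p under 0.05 in vehicle. The 7 checkpoint members, which sense unattached kinetochores or act with the anaphase-promoting complex, differed by -0.25 (Bub1) to 0.01 (Bub3). The 6 centromere and kinetochore members differed by -0.30 (Nuf2, a subunit of the NDC80 complex) to 0.02 (Cenpa, the centromeric histone), with a median of -0.04. The 5 spindle members differed by -0.24 (Kif4, a chromosome-arm kinesin) to 0.14 (Hmmr, a spindle-pole protein). Precision was lowest for Nuf2, whose standard error was 0.48.

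Among the genes of cytokinesis, Kif23, a kinesin of the central spindle, ranged from 11.97 to 13.50 in WT (median 12.89) and from 12.05 to 12.87 in SOX2 KO (median 12.37), a difference of -0.39 ± 0.25 (adjusted p 1.00). The other 4, Kif20a, Prc1, Ect2 and Anln, differed by -0.10 to 0.07. Mki67 ranged from 15.48 to 16.11 in WT (median 15.66) and from 14.70 to 15.84 in SOX2 KO (median 15.46), and the difference was -0.37 ± 0.23 (adjusted p 1.00). The groups overlapped, with SOX2 KO cultures both below and inside the WT range. Top2a ranged from 13.32 to 13.64 in WT (median 13.46) and from 12.65 to 13.75 in SOX2 KO (median 13.39), a difference of -0.17 ± 0.17.

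The second comparison set SOX2 KO against WT among the Dex arrays. Again no member passed, where 0.564% of all genes did. Aurkb alone had an unadjusted p under 0.05, beside 7.56% of all genes, and no member's groups failed to overlap, against 0.482% of all genes. The median member difference was -0.24, with 31 of 36 below 0, against -0.06 over all genes, of which 58.7% were below 0. Leaving out culture 12, or its Dex array alone, took the member median to -0.14, and quantile normalization took it to -0.13. Leaving out culture 4 took it to -0.31, with 33 of 36 below 0 and 3 members under an unadjusted p of 0.05, beside 8.38% of all genes. Leaving out culture 8 took it to -0.32 and brought 7 members under an unadjusted p of 0.05, beside 8.64% of all genes, with a smallest adjusted p of 0.0708 for Aurkb.

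**Figure D2:**
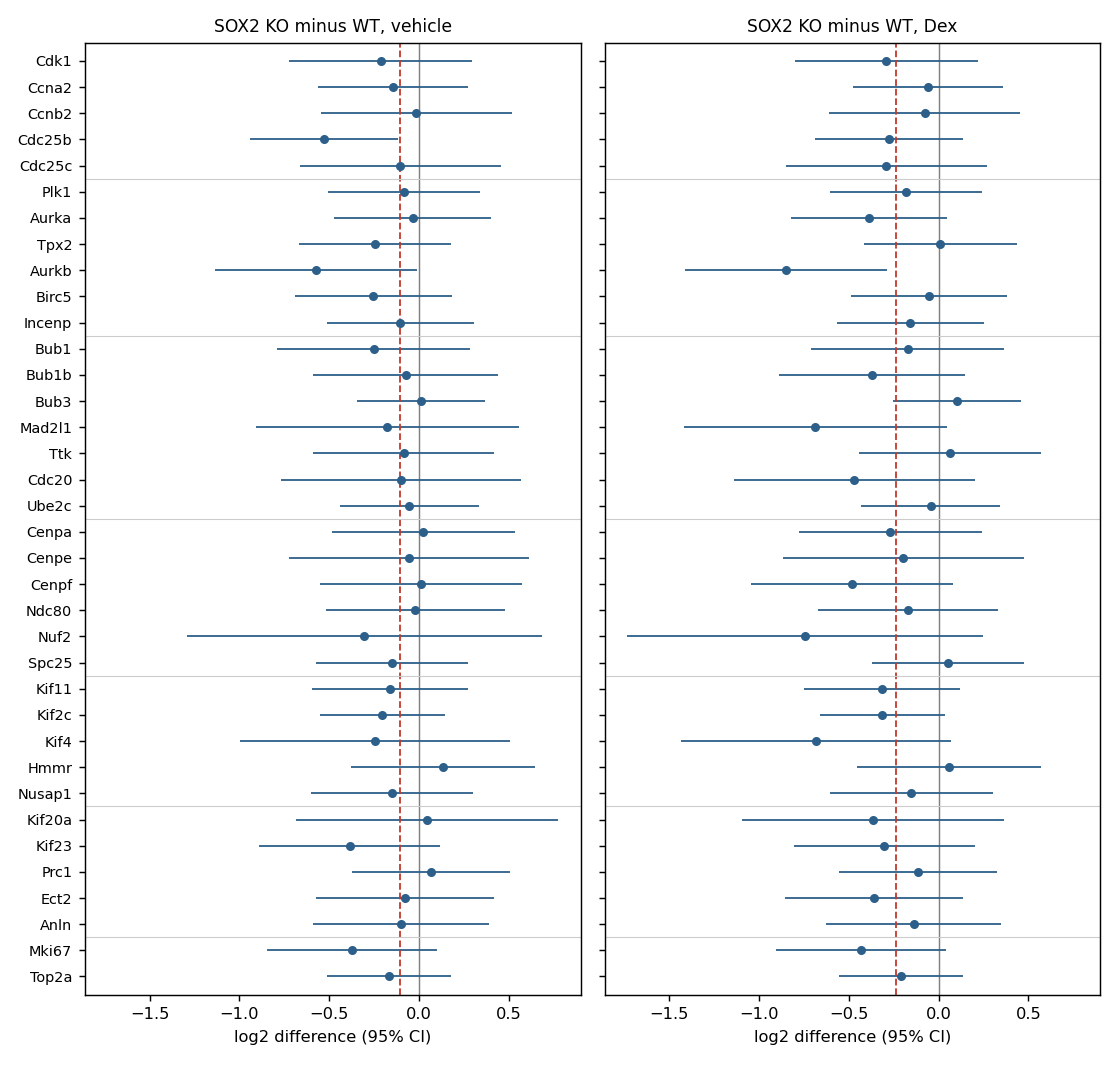
Difference between SOX2 KO and WT in log2 level for each of the 36 genes, with 95% confidence intervals from the limma fit, in vehicle (left) and Dex (right); grey lines separate the roles in the order of the text and the dashed red line is the median of the 36. Most points lie a little below 0, with medians of -0.10 and -0.24, and nearly all intervals cross 0.

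Aurkb ranged from 11.06 to 11.82 in WT Dex (median 11.46) and from 8.94 to 11.74 in SOX2 KO Dex (median 11.01), and the difference was -0.85 ± 0.28 (adjusted p 0.251). The value of 8.94 was from culture 12, and without that array the difference was -0.57 (adjusted p 0.421). Mad2l1, the checkpoint protein that binds CDC20, ranged from 12.13 to 13.72 in WT Dex (median 13.05) and from 10.10 to 13.16 in SOX2 KO Dex (median 12.42), a difference of -0.69 ± 0.36 (adjusted p 0.713) that became -0.32 without the culture 12 array. Kif4 ranged from 11.01 to 12.04 in WT Dex (median 11.47) and from 8.06 to 11.64 in SOX2 KO Dex (median 11.29), a difference of -0.68 ± 0.37 (adjusted p 0.739) that became -0.22. Without WT culture 4 the differences were -0.80 for Aurkb, -0.86 for Mad2l1 and -0.78 for Kif4, and the smallest adjusted p of a member was 0.388, for Aurkb. For all 3 genes the lowest SOX2 KO value was from culture 12, and the range of the other 6 SOX2 KO arrays overlapped with WT. For Aurkb, cultures 7, 9, 11 and 13 (11.02, 11.01, 10.41 and 10.12) still lay below the lowest WT value of 11.06. For Kif4 only culture 13 (10.73) did so, and for Mad2l1 none did (lowest 12.23). Kif2c, a microtubule depolymerase at kinetochores, ranged from 13.20 to 13.56 in WT Dex (median 13.29) and from 12.68 to 13.40 in SOX2 KO Dex (median 13.00), a difference of -0.31 ± 0.17 (adjusted p 0.744).

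Mki67 ranged from 15.51 to 15.88 in WT Dex (median 15.70) and from 14.03 to 15.73 in SOX2 KO Dex (median 15.41), a difference of -0.43 ± 0.23 (adjusted p 0.735) that became -0.23 without the culture 12 array and -0.47 without culture 4. Cdk1 ranged from 12.27 to 13.47 in WT Dex (median 12.73) and from 11.80 to 13.08 in SOX2 KO Dex (median 12.52), a difference of -0.29 ± 0.25. These 2 genes overlapped between the groups, as in vehicle. Plk1 ranged from 13.64 to 14.69 in WT Dex (median 14.52) and from 13.56 to 14.66 in SOX2 KO Dex (median 14.08), a difference of -0.18 ± 0.21. Top2a ranged from 13.04 to 13.92 in WT Dex (median 13.58) and from 13.22 to 13.49 in SOX2 KO Dex (median 13.33), a difference of -0.21 ± 0.17. Birc5 ranged from 11.91 to 12.94 in WT Dex (median 12.43) and from 11.76 to 12.99 in SOX2 KO Dex (median 12.50). Its difference of -0.05 ± 0.21 turned to 0.05 after quantile normalization, to 0.03 after median centring and to 0.03 with Eif2s3y, a Y-linked gene, as a covariate for sex.

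The third comparison was Dex against vehicle within cultures. In WT cells the members' differences were small. No member passed, and 0% of all genes did. At an unadjusted p under 0.05 there were 0 members by limma, beside 3.87% of all genes, and 0 again in the fit with no replicate block, beside 0.964% of all genes. The median member difference was 0.03 with 22 of 36 above 0, the largest was 0.26 and the smallest -0.33, and all 36 confidence intervals lay within 1 log2 unit of 0. Without culture 4, whose treatment labels are in doubt, the median was 0.05, and 33 genes passed (31 higher and 2 lower, 0.169% of all genes), none of them a member. It was -0.01 with array cluster in the fit or without culture 3.

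Cenpf, a large kinetochore protein, was higher on the arrays labelled Dex in 6 of 6 WT cultures, by 0.15 to 0.41, and was the 1 member with the same sign in every WT culture as labelled, beside 4.17% of all genes. The 0.41 was from culture 4, and in the other 5 cultures it was higher by 0.15 to 0.29. Its mean difference was 0.23 ± 0.16 (SE; adjusted p 0.998), or 0.20 without culture 4. Aurka was higher in 5 of 6 WT cultures, with a mean difference of 0.26 ± 0.13 (adjusted p 0.998), from a vehicle range of 10.78 to 11.80 to a Dex range of 11.09 to 11.73. Cdc25b was lower in 4 of 6, by -0.33 ± 0.18 on average, Bub1 in 4 of 6 by -0.23 ± 0.14, and Aurkb in 5 of 6 by -0.27 ± 0.24. Without culture 4 the differences were 0.26 for Aurka, -0.33 for Cdc25b, -0.20 for Bub1 and -0.28 for Aurkb. The vehicle and Dex ranges of these genes overlapped. Mki67, Top2a, Cdk1, Plk1 and Birc5 differed by -0.03 ± 0.13, 0.07 ± 0.15, 0.11 ± 0.15, 0.03 ± 0.13 and -0.07 ± 0.16. Without culture 4 these were -0.044, 0.038, 0.05, 0.01 and -0.094.

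In SOX2 KO cells most Dex differences of the members were below 0. No member passed, where 0.0718% of all genes did, and 4 had an unadjusted p under 0.05, all lower, beside 10.2% of all genes. The median member difference was -0.09, with 26 of 36 below 0, against -0.02 over all genes, of which 54.6% were below 0. Without culture 12 it was -0.05 with 1 member under an unadjusted p of 0.05, beside 8.17% of all genes. In the fit with no replicate block 1 member was under it as well, beside 2.84% of all genes. Quantile normalization took the member median to -0.03, with 24 of 36 below 0. Within the 3 array clusters of the values as deposited the member median was -0.13, -0.25 and 0.03. Over all genes it was -0.09, 0.025 and -0.01.

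**Figure D3:**
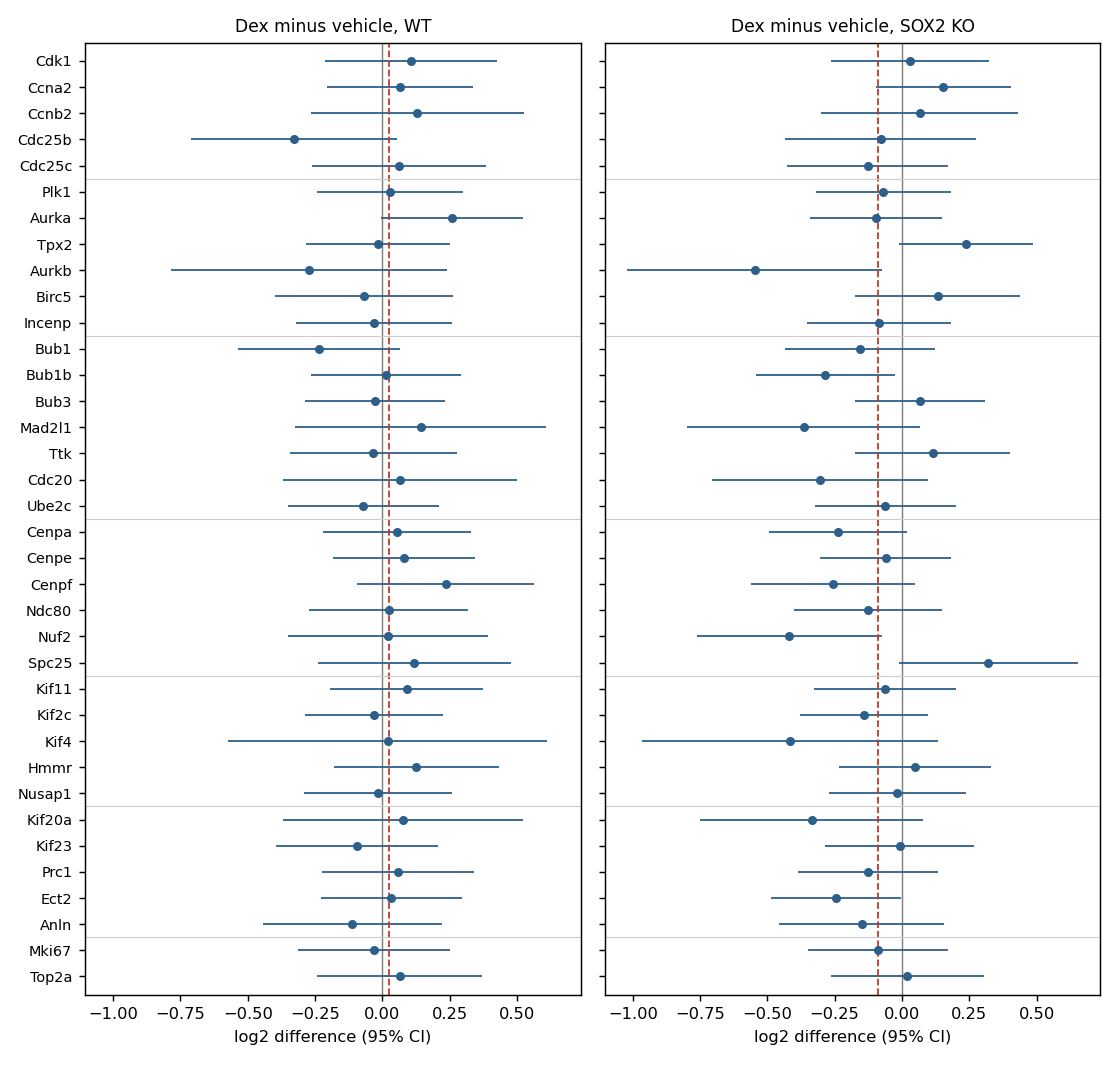
Difference between Dex and vehicle in log2 level for each of the 36 genes, paired within cultures, with 95% confidence intervals from the limma fit, in WT (left, 6 cultures) and SOX2 KO (right, 7 cultures); the dashed red line is the median of the 36. WT points scatter around 0 (median 0.03), and 26 of the 36 SOX2 KO points lie below it (median -0.09).

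Nuf2 was lower with Dex in 7 of 7 SOX2 KO cultures, by 0.11 to 0.39 in 6 of them and by 1.73 in culture 12, where it dropped from 11.53 to 9.80. Its mean difference was -0.42 ± 0.16 (SE; adjusted p 0.423), or -0.20 without culture 12. Bub1b, which encodes the checkpoint kinase BUBR1, was lower in 7 of 7 cultures as well, by 0.02 to 0.66, with a mean difference of -0.28 ± 0.12 (adjusted p 0.463) that was -0.27 without culture 12. Tpx2 was higher in 7 of 7, by 0.05 to 0.44, with a mean difference of 0.24 ± 0.12 (adjusted p 0.515). These 3 were the members with the same sign in every SOX2 KO culture, beside 2.5% of all genes, and Tpx2 is named here after its values were seen.

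Aurkb was lower with Dex in 5 of 7 SOX2 KO cultures, by -0.55 ± 0.23 on average (adjusted p 0.439) and by -0.26 without culture 12. Ect2, the exchange factor that activates RhoA for the cleavage furrow, was lower in 5 of 7, by -0.25 ± 0.12 (adjusted p 0.483). Spc25, another NDC80 complex subunit, was higher in 4 of 7, by 0.32 ± 0.16 (adjusted p 0.510), with its largest difference of 1.29 in culture 12 and a mean of 0.16 without that culture. Mki67, Top2a, Cdk1, Plk1 and Birc5 differed by -0.09 ± 0.12, 0.02 ± 0.14, 0.03 ± 0.14, -0.07 ± 0.12 and 0.13 ± 0.15.

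Whether the response to Dex differed by genotype was tested as an interaction. No member passed, and 0% of all genes did. Cenpf alone had an unadjusted p under 0.05, beside 3.53% of all genes. Its Dex effect in SOX2 KO minus that in WT was -0.49 ± 0.21 (SE; adjusted p 0.999), with SOX2 KO cultures lower in 5 of 7 and WT cultures higher in 6 of 6 as labelled, or 5 of 5 without culture 4. The difference was -0.46 without culture 4 and -0.38 without culture 12. The next members by p were Aurka (-0.35 ± 0.17), Nuf2 (-0.44 ± 0.24), Mad2l1 (-0.51 ± 0.30) and Ect2 (-0.28 ± 0.17), of which Nuf2 was at -0.22 and Mad2l1 at -0.24 without culture 12. Without culture 4 these 4 were at -0.35, -0.47, -0.57 and -0.29. For Mki67, Top2a, Cdk1, Plk1, Aurkb and Birc5 the interaction was -0.06 ± 0.18, -0.04 ± 0.20, -0.08 ± 0.21, -0.10 ± 0.18, -0.27 ± 0.33 and 0.20 ± 0.21, and without culture 4 it was -0.046, -0.018, -0.02, -0.08, -0.27 and 0.23. The signs for Mki67, Top2a and Aurkb turned when cultures 4 and 12 were left out. The median over the 36 members was -0.09, with 26 below 0, and -0.03 over all genes. The Dex comparisons and the genotype comparisons share arrays, so their values are not independent.

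The members varied between cultures of the same group. In vehicle, with genotype means removed, the SD between cultures of a member was 0.384 log2 units at the median, against 0.412 for all genes. It ranged from 0.215 for Aurkb to 0.803 for Nuf2. The members were lowest in few cultures: on the vehicle arrays culture 13 held the lowest of 13 values for 19 members and culture 12 for 12 members. The highest value was in culture 8 for 14 members and in cultures 3 and 5 for 8 each. On the Dex arrays, culture 3 was highest for 22 members and culture 12 lowest for 15. The same counts were not made over all genes.

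**Figure D4:**
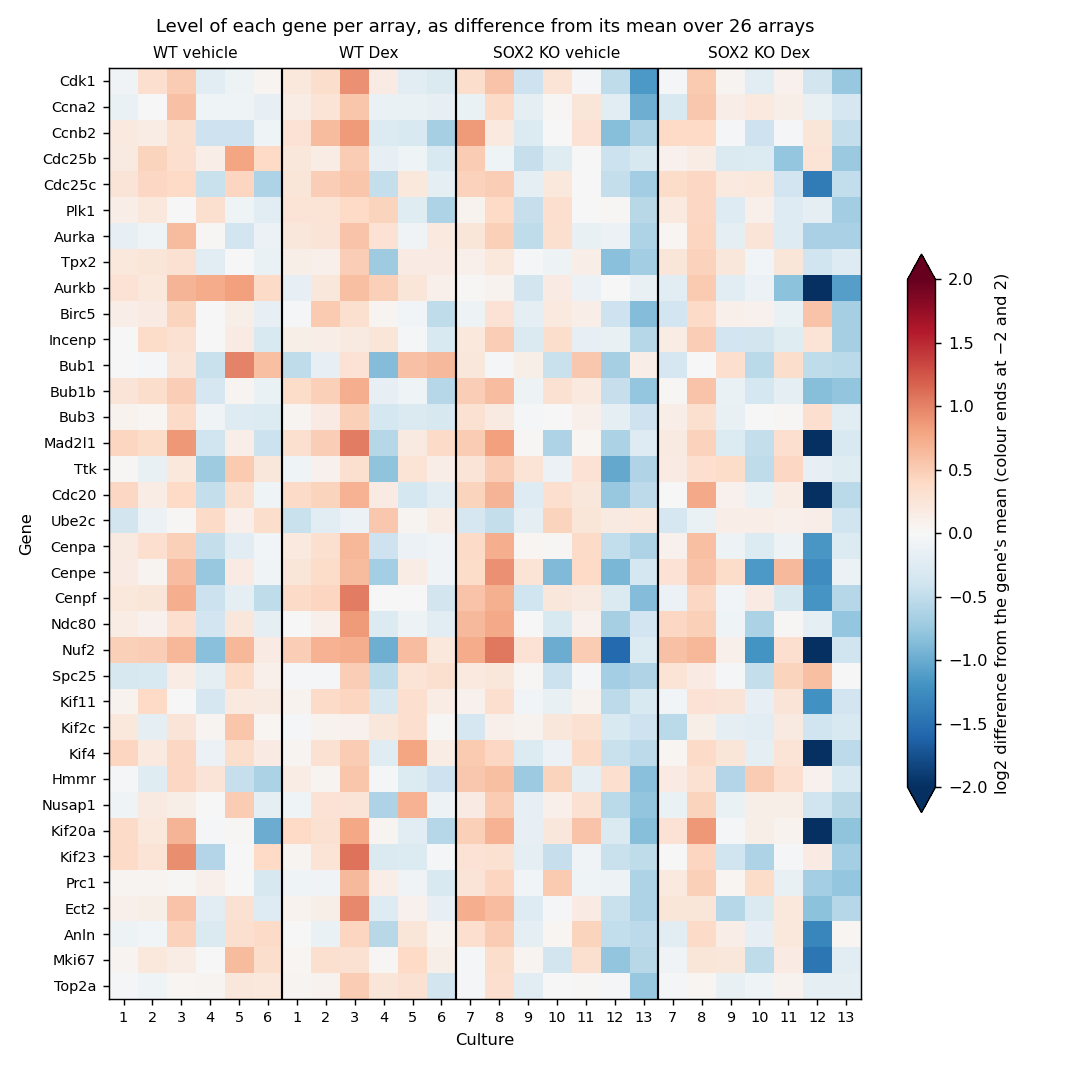
Log2 level of each of the 36 genes (rows, by role) on each array (columns, by group and culture number) as the difference from that gene's mean over the 26 arrays; blue is lower and red higher, and colours end at differences of -2 and 2. Whole columns share a colour, red in cultures 3 and 8 and blue in culture 13, while the culture 12 Dex column mixes dark blue with red.

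The members varied together across cultures. Over the 13 vehicle cultures with genotype means removed, the median Pearson correlation of the 630 member pairs was 0.597 (Spearman 0.588), and 63.3% of pairs were above 0.5, against a median of 0.096 and 16.8% for all pairs of genes. After quantile normalization, which removes differences in signal distribution between arrays, the median was 0.368 (Spearman 0.327) for members and 0.000 for all pairs. With array cluster means removed as well it was 0.664 (0.585 after quantile normalization), and 98.1% of member pairs were above 0. Without cultures 12 and 13, the lowest, it was 0.434 over 11 cultures, against 0.116 for all pairs. These are descriptions over cultures that share array clusters and signal distributions. Of the 36 members, 28 had their highest vehicle mean in the first array cluster, which also had the highest upper quartiles. How many of all genes were highest there was not counted.

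**Figure D5:**
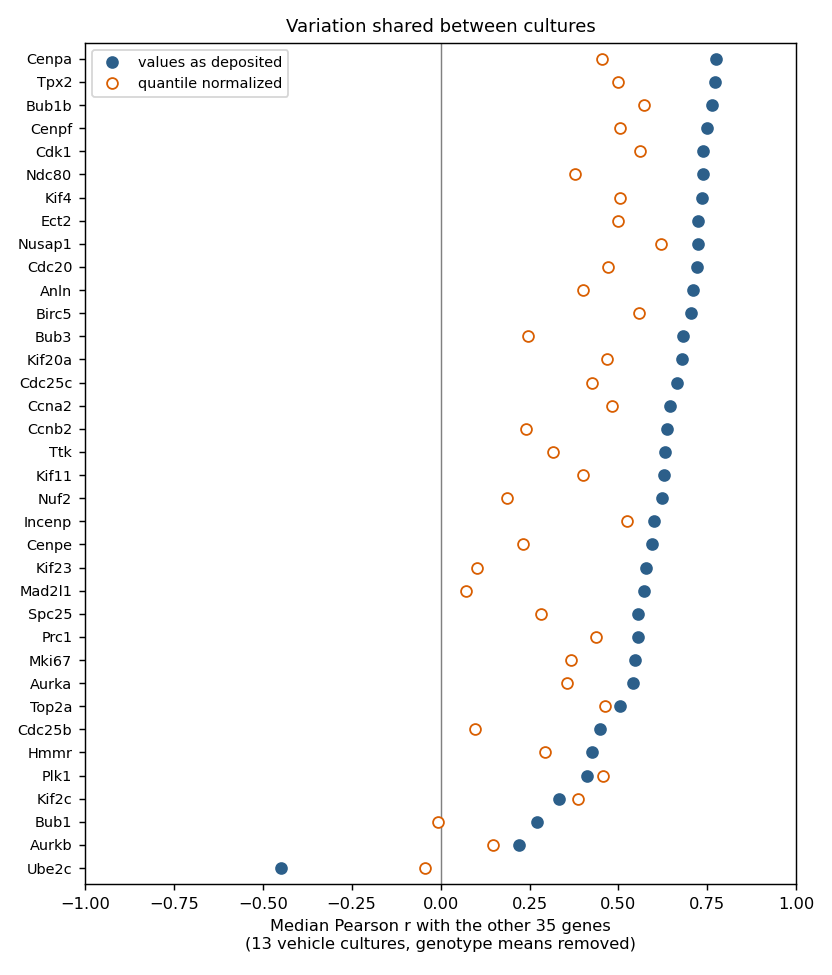
For each of the 36 genes, the median Pearson correlation with the other 35 over the 13 vehicle cultures, genotype means removed, for values as deposited (filled) and after quantile normalization (open). Cenpa, Tpx2 and Bub1b are at the top, and Ube2c, at -0.449 and -0.044, is at the bottom in both.

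Ube2c stood apart from the other members in the values as deposited. Its median correlation with them was -0.449, and those of the other 35 ran from 0.221 for Aurkb to 0.774 for Cenpa. It was the 1 member with its lowest vehicle mean in the first array cluster, at 13.82, against 14.40 and 14.21 in the others. With array cluster means removed its median correlation was 0.109, and after quantile normalization it was -0.044, beside -0.00814 for Bub1 and 0.0724 for Mad2l1. By Spearman on the quantile-normalized values Ube2c was at 0.0659 and Bub1 at 0.0604, so Ube2c was not the lowest there. It was the lowest by Spearman on the values as deposited (-0.423) and without cultures 12 and 13 (-0.393). With array cluster means removed it was the lowest as well, both at 0.109 and after quantile normalization (-0.167). Its group means were 14.13 ± 0.284 in WT vehicle, 14.06 ± 0.339 in WT Dex, 14.08 ± 0.339 in SOX2 KO vehicle and 14.02 ± 0.234 in SOX2 KO Dex.

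The Dex array of culture 12 was low for some members and not for others. It held the lowest of all 26 values for 15 members. Against the vehicle array of the same culture, 6 members were lower by more than 1 log2 unit, namely Kif4, Aurkb, Cdc20, Mad2l1, Kif20a and Nuf2, and in the other 12 cultures no member was lower by that much. These counts were not made over all genes. The array had the lowest upper quartile of all arrays, at 9.38, and the highest lower quartile, at 5.38. Kif4 dropped by 2.74 to 8.06, Aurkb dropped by 2.27 to 8.94, and Mad2l1 dropped by 1.97 to 10.10. In the same pair 14 of the 36 members were higher with Dex, beside 52.5% of all genes. Spc25 rose by 1.29 to 12.04, and Birc5 at 12.99 was the highest SOX2 KO Dex value. Over the 36 members the culture's Dex minus vehicle mean was -0.332, and those of the other SOX2 KO cultures ran from -0.237 to 0.119, while in WT they ran from -0.105 to 0.170. After quantile normalization that of culture 12 was -0.219. The -0.237 was from culture 7, where 33.1% of all genes were higher with Dex, and it was -0.00849 after quantile normalization.

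Other genes of the cell cycle were measured beside the members. Of 72 other mitosis and G2/M genes measured, none passed in any of the 5 comparisons. At an unadjusted p under 0.05 there were 1, 5, 1, 3 and 4 of the 72, in the order of the text. The shares of all genes were 5.17%, 7.56%, 3.87%, 10.2% and 3.53%. In vehicle 61 of the 72 were lower in SOX2 KO (median difference -0.21) and in Dex 60 (median -0.27), beside 55.2% and 58.7% of all genes. The 38 measured DNA replication and G1/S genes had medians of -0.27 in vehicle and -0.37 in Dex, with 34 and 35 of 38 below 0. Of them 5 in vehicle and 12 in Dex, all lower, had an unadjusted p under 0.05, beside 5.17% and 7.56% of all genes. Among them 1 passed in vehicle, E2f2, which encodes an activator of S-phase genes, at 7.83 in SOX2 KO and 9.21 in WT, a difference of -1.38 ± 0.33 (SE; adjusted p 0.0419). That call was lost after quantile normalization (adjusted p 0.0627), without cultures 4 and 12 (0.0724), and when any of 10 of the 13 cultures was left out. Over those 13 fits the adjusted p ran from 0.0216 to 0.129. It was kept under 10 of the 12 other alternatives, among them array cluster in the fit (adjusted p 0.0265) and leaving out the culture 12 Dex array (0.0082), and the smallest adjusted p was 0.00493. The difference ran from -1.51 to -1.16 over all of them. Of 23 measured regulators of these genes, such as E2F family members, the pocket proteins and MYB family members, none passed in any comparison.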

How the data were processed

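Gene expression was measured on 26 one-colour microarrays with biotin-labelled cRNA. The deposited series table gives 1 value per transcript cluster and array. The authors' normalization and the base of the logarithm are not given in the sources used here; from their range the deposited values were taken as log2 levels and used as deposited. Of 22206 transcript clusters, 19572 carry 1 gene symbol and 2634 none; for the 55 genes with more than 1, the transcript cluster of highest mean was used, which left 19505 genes. The number of arrays limits the precision.

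SOX2 KO and WT were compared with limma 3.58.1 in R 4.3.3 with 1 mean per group over all 26 arrays. Dex and the interaction were fitted with the culture as a replicate block. P-values were adjusted by Benjamini-Hochberg over all genes. The labels say that the culture of each animal was kept separate and give each number 1 vehicle and 1 Dex array. Profiles of the same number, with group means removed, correlated at 0.307 to 0.729, and 22 of 26 arrays matched their own number best, so the numbers were taken as pairs; the misses were in cultures 9, 11, 12 and 13.

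The members, their roles, the other lists and the alternatives were chosen with earlier results of these data known. Values are given for the members past the threshold or, where fewer than 5 passed, the 5 of smallest p in a comparison, and in each for Mki67, Top2a, Cdk1, Plk1, Aurkb and Birc5. Members named otherwise were chosen for their role or after their values were seen. The steps were tested on simulated data. As alternatives, arrays were quantile normalized or centred on their median, low means were filtered, and other settings were tried: fewer arrays in the fit, array cluster, array weights, a trended robust prior, the mean of transcript clusters, the level of Eif2s3y, the block, and leaving out cultures.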

Additional observations from a re-analysis of the deposited data

Results flagged for a closer look

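In 220 groups of 6 or 7 values (the level of each member in each group, the member mean of each group, and the Dex minus vehicle difference of each member in each genotype), 26 had a highest or lowest culture whose gap to the next was a larger part of the group's range than Dixon's 95% critical value (0.625 for 6 and 0.568 for 7 values). Chance alone flags about 1 in 20 groups.

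Culture 12 (SOX2 KO) accounted for 10 of them. On its Dex array Mad2l1 was at 10.10, Cdc20 at 9.40, Kif4 at 8.06 and Anln at 9.00 log2 units, each the lowest of its group. Its Dex minus vehicle difference was -1.97 for Mad2l1, -1.73 for Nuf2, -2.74 for Kif4, -1.95 for Kif20a and -0.58 for Prc1, the lowest of the 7 SOX2 KO cultures, and 0.48 for Ndc80, the highest. That array also had the lowest upper quartile, and its part in these values was not tested.

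Culture 4 (WT), whose treatment labels are in doubt, gave 6. Its Dex array was lowest of its group for Tpx2 (12.55), Ttk (10.61) and Nuf2 (12.10), and its vehicle array was lowest for Nuf2 (12.25). Its Dex minus vehicle difference was the lowest in WT for Hmmr (-0.28) and Nusap1 (-0.60).

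Culture 3 (WT) gave 6. It was the highest of its group for Ccna2 in vehicle (15.45) and for Ndc80 (11.63) and Ect2 (12.78) with Dex. Its Dex minus vehicle difference was the highest in WT for Kif11 (0.43) and Prc1 (0.63) and the lowest for Aurka (-0.07). The other 4 were Prc1 in WT vehicle culture 6 (11.30, lowest), and the differences of Mad2l1 in culture 6 (0.81, highest), Cenpe in culture 2 (0.31, highest) and Top2a in culture 13 (0.57, highest).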

How the results depend on the processing

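No member passed in any of the 5 comparisons under any alternative, and the smallest adjusted p of a member (limma) over them was 0.0708, for Aurkb in Dex without culture 8. The count of all genes called moved more: from 109 to between 75 and 378 for SOX2 KO against WT in vehicle, from 110 to between 69 and 561 in Dex, from 0 to at most 58 for Dex in WT and from 14 to between 3 and 66 in SOX2 KO. The fits with no replicate block gave 0 members called and the same medians for Dex (0.03 in WT, -0.09 in SOX2 KO) and the interaction, and no paired call was lost because none was made. The member median ranged from -0.21 to -0.01 in vehicle, -0.32 to -0.13 in Dex, -0.01 to 0.05 for Dex in WT, -0.13 to -0.03 in SOX2 KO and -0.16 to -0.05 for the interaction.

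Of 1127 values of named members under the alternatives, 28 had the opposite sign, all within 13 uncalled results; the cause was not tested. The interaction of Aurkb turned to 0.0048 with array weights and 0.016 without cultures 4 and 12, which also turned the interactions of Mki67 (0.051) and Top2a (0.014) and the SOX2 KO Dex effects of Birc5 (-0.0083) and Mki67 (0.0067). Birc5 in Dex turned to 0.048 (quantile normalization), 0.025 (median centring) and 0.032 (Eif2s3y), and Plk1 for Dex in WT to -0.012 (array cluster). With 1 culture left out, the interaction ran from -0.44 to 0.013 for Aurkb, -0.16 to 0.010 for Cdk1, -0.13 to 0.038 for Mki67 and -0.18 to 0.036 for Top2a. The Dex effect in SOX2 KO ran from -0.0083 to 0.20 for Birc5, -0.043 to 0.12 for Cdk1, -0.16 to 0.0067 for Mki67 and -0.072 to 0.073 for Top2a, and in WT from -0.07 to 0.008 for Mki67, -0.048 to 0.11 for Plk1 and -0.016 to 0.20 for Top2a. SOX2 KO minus WT ran from -0.17 to 0.055 for Birc5 in Dex and from -0.15 to 0.005 for Plk1 in vehicle. Leaving out the culture 12 Dex array alone was added after the data were seen, as were the alternatives for E2f2.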
